A study of Equus caballus with 10 samples.

Results

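The genes described here are 10 matrix metalloproteinases (MMPs), MMP1, MMP2, MMP3, MMP9, MMP11, MMP13, MMP14, MMP16, MMP19 and MMP23B, in tenocytes of the horse. They were found by gene name in a table of 29196 genes, and all 10 were listed. The tenocytes came from the superficial digital flexor tendon of 5 adult horses, collected post-mortem, and each horse gave 1 library to each of 2 groups. All cultures were grown in 3D collagen gels for 14 days and received daily 100 nM PF-06650833, which blocks IRAK-4, a kinase below the interleukin-1 receptor. The PF group received PF-06650833 alone (5 libraries), and the IL-1β group received IL-1β plus PF-06650833 (5 libraries), with IL-1β at 17 ng/ml given every 3 to 4 days. Every library therefore carries the inhibitor, and libraries without it were not used here, so the values show what IL-1β did in its presence and not what the inhibitor did. The horses are called donors 1 to 5. The gels were made of bovine collagen and held expanded primary cells in place of living tendon.

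MMPs are zinc-dependent proteases that are made as inactive proenzymes and cut the proteins of the extracellular matrix. The collagenases MMP1 and MMP13 cleave the triple helix of fibrillar collagen, the stromelysin MMP3 cleaves proteoglycans and activates other proMMPs, and the gelatinases MMP2 and MMP9 degrade denatured collagen. MMP14 and MMP16 are anchored in the cell membrane. In tendon, type I collagen is the main substrate, and interleukin-1 is a well known inducer of collagenase and stromelysin in fibroblasts.

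The values are log2 expression on a variance-stabilized scale, on which a gene with 0 reads has the value 3.43. They compare libraries for 1 gene and not 1 gene with another, since they are not set per length of transcript. Differential expression required an adjusted p under 0.05 (limma, 17992 tested genes) together with a log2 fold change of 1 or more in size. Fold changes are those of the IL-1β group over the PF group. Each call was also tried in 15 leave-out fits, without 1 library or without both libraries of 1 donor. Like the fit that gave the calls, they had no term for the donor. The tendon transcription factors SCX (11.12 and 7.87, means of 5 libraries in the PF and the IL-1β group) and MKX (11.45 and 8.60) were expressed and both fell with IL-1β, whereas the late tendon marker TNMD was at the value of 0 reads in all 10 libraries. Of 9 tested tenocyte markers, 3 fell and 0 rose, and 5 fell with the donor as a replicate block. In bulk RNA, fewer cells of a type and less RNA per cell cannot be told apart.

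With IL-1β, MMP1, MMP3 and MMP9 rose, MMP23B fell, and the other 6 MMP genes were not called. MMP1 and MMP3 had log2 fold changes of 5.97 and 5.40, MMP9 of 2.09 and MMP23B of -1.56. Of all tested genes 6.68% were differentially expressed, 3.11% higher and 3.57% lower, against 4 of these 10 genes, 3 higher and 1 lower. The 10 genes were chosen with earlier results of these data known, so this comparison is no test. Of all 22 MMP genes listed, 17 were tested and the same 4 were called (23.5%). The 10 genes had a median log2 fold change of 0.67, against -0.01 for all tested genes. With the donor as a replicate block the same number of the 10 genes was called, 3 higher and 1 lower, where 8.26% of all tested genes were. These 2 shares of all tested genes, 6.68% and 8.26%, also apply to the counts given for each gene list. All 10 genes were above the value of 0 reads in all 10 libraries, so the filter on low values did not select among them.

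**Figure D1:**
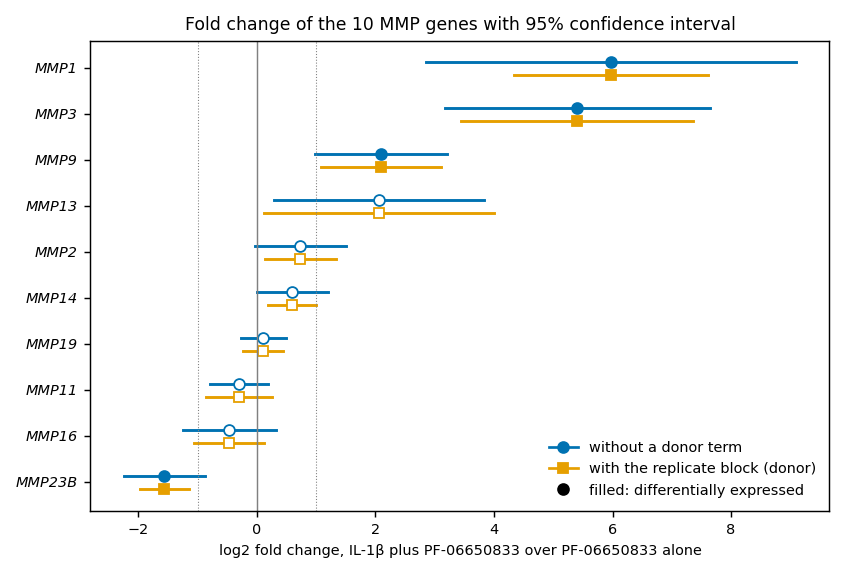
Log2 fold change (x axis) of the 10 MMP genes with its 95% confidence interval from limma, without a donor term (circles) and with the donor as a replicate block (squares). Filled symbols mark differentially expressed genes and dotted lines a log2 fold change of 1 in either direction. MMP1, MMP3 and MMP9 lie to the right, MMP23B lies to the left, and the interval of MMP13, from 0.28 to 3.83, is wide.

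MMP1, the interstitial collagenase, varied widely between donors in both groups. In the PF group its log2 expression in donors 1 to 5 was 9.56, 11.95, 10.03, 4.21 and 7.11, and in the IL-1β group it was 14.57, 17.62, 13.06, 11.80 and 15.66. It was higher with IL-1β in 5 of 5 donors, but the groups overlapped, since donor 2 in the PF group stood slightly above donor 4 with IL-1β. The mean went from 8.57 ± 2.99 (SD, n = 5) to 14.54 ± 2.26 (SD, n = 5). This gave a log2 fold change of 5.97 ± 1.42 (SE, adjusted p = 0.0165). Converted back to normalised counts, MMP1 was at 3.19 in donor 4 and between 117 and 3925 in the other donors in the PF group, and between 3536 and 202100 with IL-1β. Without the low library of donor 4 the log2 fold change was 4.88 (adjusted p = 0.0282). The call was lost when both libraries of donor 1 (adjusted p = 0.0678) or of donor 5 (0.0920) were left out, in fits without a donor term. With all libraries and the replicate block the SE was 0.70 and the adjusted p from limma was 0.00154.

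MMP13, the other collagenase, did not pass the test although its mean moved by about as much as that of MMP9. In donors 1 to 5 it was at 14.90, 16.33, 15.88, 13.07 and 15.10 in the PF group and at 17.81, 16.87, 17.23, 19.13 and 14.52 in the IL-1β group. It was higher with IL-1β in 4 donors and lower in donor 5, and the groups overlapped. The log2 fold change was 2.05 (95% confidence interval 0.28 to 3.83, adjusted p = 0.113). Donor 4 had the lowest value of the 5 in the PF group and the highest with IL-1β. In that last library MMP13 took 1.51% of all normalised counts and ranked 1 among all genes by counts. Without both libraries of donor 4 the log2 fold change was 1.05 (adjusted p = 0.335), and without the IL-1β library of donor 5 it was 2.70 and called (adjusted p = 0.0260).

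MMP3, stromelysin-1, separated the groups completely. In the PF group it was at 5.76, 7.48, 6.45, 5.19 and 4.91 in donors 1 to 5, and in the IL-1β group at 10.17, 13.19, 8.83, 14.70 and 9.92. Every IL-1β library lay above every library in the PF group, as was the case, in either direction, for 12.7% of all tested genes. The log2 fold change was 5.40 ± 1.02 (SE, adjusted p = 0.00542). In normalised counts the range was 12.4 to 158 in the PF group and 433 to 26540 with IL-1β. Variance stabilization compresses differences between low values, and on the log2(normalised count + 1) scale the fold change of MMP3 was 6.02 and that of MMP1 was 6.46.

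MMP9, the larger gelatinase, rose in all donors but 1. It was at 13.53, 14.25, 14.30, 14.25 and 12.66 in donors 1 to 5 in the PF group, and at 16.68, 16.55, 16.55, 14.08 and 15.58 in the IL-1β group. Donor 4, which had the largest differences of MMP3 and MMP13, was the donor in which MMP9 was not higher, and it alone made the groups overlap. The log2 fold change was 2.09 ± 0.51 (SE, adjusted p = 0.0182), and 2.54 (adjusted p = 0.00173) without the IL-1β library of donor 4. The call was lost without donor 1 (adjusted p = 0.103), donor 2 (0.0719) or donor 5 (0.0703), both libraries left out each time. Those fits had no donor term, and with all libraries and the replicate block the adjusted p from limma was 0.0135.

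MMP2, the other gelatinase, was at 16.65, 17.18, 16.96, 15.78 and 15.91 in donors 1 to 5 in the PF group and at 17.22, 17.67, 17.11, 17.64 and 16.50 in the IL-1β group. MMP14, the membrane-type protease that activates proMMP2 at the cell surface, was at 15.48, 16.11, 16.02, 14.82 and 14.95 and at 16.11, 16.29, 16.24, 15.66 and 16.06. Both genes were higher with IL-1β in 5 of 5 donors, by 0.15 to 1.86 for MMP2, with the largest difference in donor 4, and by 0.18 to 1.12 for MMP14, with the largest in donor 5. The groups overlapped for both. Neither was called, with a log2 fold change of 0.73 for MMP2 (95% confidence interval -0.03 to 1.50, adjusted p = 0.185) and of 0.60 for MMP14 (-0.00 to 1.20, adjusted p = 0.170). With the replicate block the adjusted p of MMP14 was 0.0448, with the fold change still below the minimum, and that of MMP2 was 0.0812.

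MMP23B fell in every donor and was the only one of the 10 genes called lower. It encodes a small MMP that has no hemopexin domain and is anchored near its amino terminus. It was at 10.12, 9.30, 9.38, 10.08 and 10.20 in donors 1 to 5 in the PF group and at 8.59, 7.26, 8.24, 9.03 and 8.15 in the IL-1β group. The groups did not overlap, and the drop within a donor was between 1.04 and 2.05. The log2 fold change was -1.56 ± 0.31 (SE, adjusted p = 0.00721). In normalised counts this was 610 to 1156 against 133 to 503. MMP3 and MMP23B were the only 2 of the 10 genes whose groups did not overlap, against 12.7% of all tested genes. Both were called in all 15 leave-out fits.

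The remaining 3 genes showed no shared direction. MMP11, stromelysin-3, which is activated inside the cell by furin, lay between 8.95 and 10.01 in the PF group and between 8.96 and 9.68 in the IL-1β group, a log2 fold change of -0.30 (95% confidence interval -0.80 to 0.19, adjusted p = 0.410). MMP16, a membrane-type MMP, lay between 8.13 and 9.84 and between 8.11 and 9.00, a log2 fold change of -0.46 (-1.24 to 0.31, adjusted p = 0.425). MMP19 lay between 11.10 and 11.71 and between 10.91 and 11.86, a log2 fold change of 0.10 (-0.27 to 0.48, adjusted p = 0.744). MMP11, MMP16 and MMP19 were each lower with IL-1β in 3 donors and higher in 2. The intervals of MMP11 and MMP19 do not reach a log2 fold change of 1 in either direction.

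**Figure D2:**
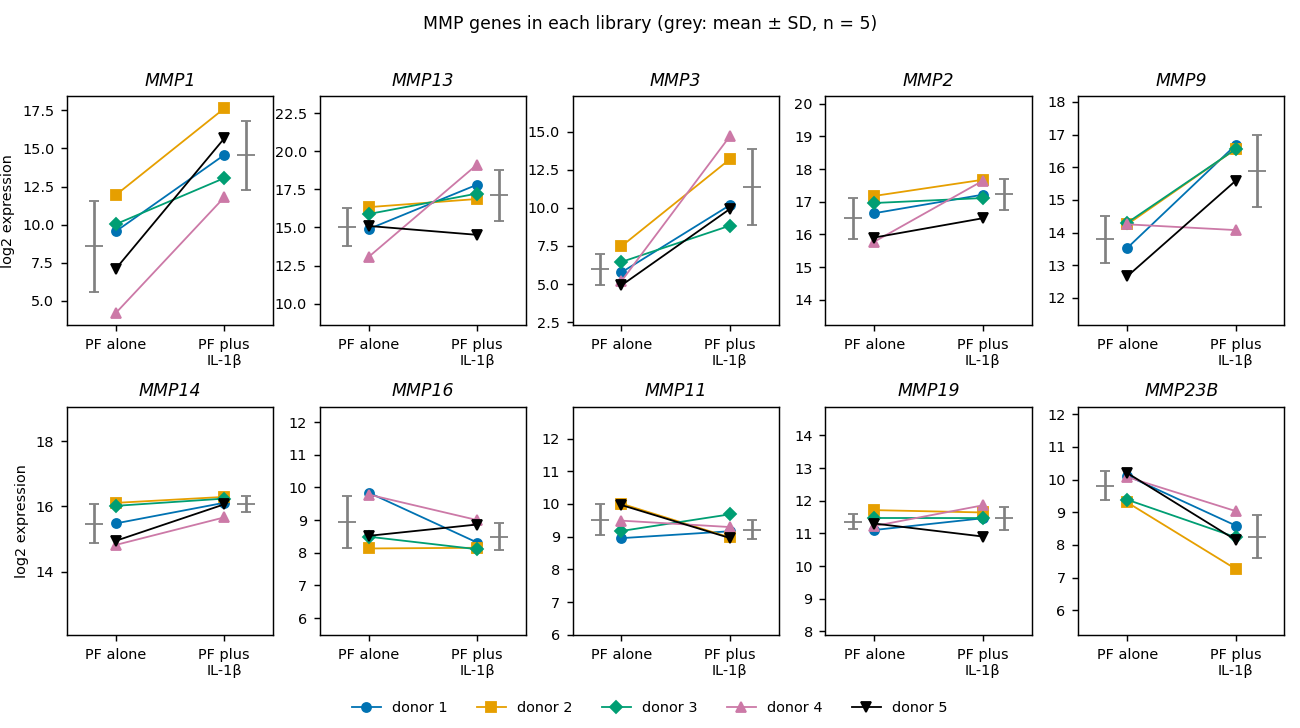
Log2 expression (y axis, variance-stabilized) of the 10 MMP genes in each library, in the PF group (left) and in the IL-1β group (right). Lines join the libraries of a donor, grey marks give the mean ± SD of 5 libraries, and the y axes of MMP1, MMP13 and MMP3 span more log2 units than the others. MMP3 and MMP23B separate the groups, while the lines of MMP13 cross.

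The donors did not share 1 order across the genes. In the IL-1β group, MMP1 was highest in donor 2, MMP3 and MMP13 were highest in donor 4, and MMP9 was highest in donor 1. Donor 4 had the lowest MMP1, MMP9 and MMP14 of the IL-1β libraries. Within donors, the log2 difference of MMP1 ranged from 3.02 in donor 3 to 8.55 in donor 5, and that of MMP3 from 2.38 in donor 3 to 9.50 in donor 4. The difference of MMP13 ranged from -0.58 in donor 5 to 6.06 in donor 4, and that of MMP9 from -0.18 in donor 4 to 3.15 in donor 1. With 1 library for each donor and group, whether the change with IL-1β differed between donors could not be tested.

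The spread of the collagenases and of MMP3 between donors was large beside that of other genes. In the PF group the SD of MMP1 was 2.99, and 0.0834% of tested genes had a larger one, while the median SD over all tested genes was 0.27. In the IL-1β group the SD was 2.47 for MMP3, 2.26 for MMP1 and 1.68 for MMP13, larger than that of all but 0.172%, 0.278% and 0.912% of tested genes, with a median of 0.30. MMP19 lay nearer the middle, with SDs of 0.24 and 0.35. The SD of MMP14 was 0.59 in the PF group and 0.25 with IL-1β.

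**Figure D3:**
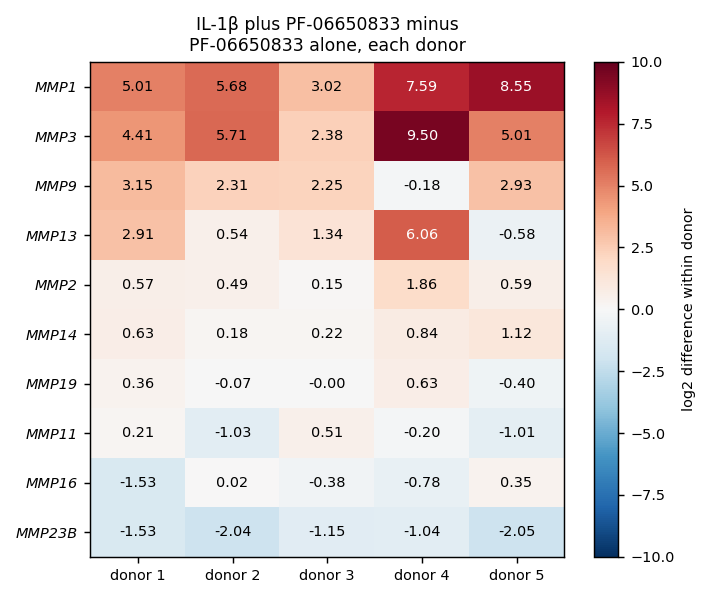
Log2 difference within each donor, IL-1β group minus PF group, for the 10 MMP genes (rows) and 5 donors (columns), in colour and as printed values. MMP1 and MMP3 are positive and MMP23B is negative in all 5 donors, MMP9 is near 0 in donor 4, and MMP13 ranges from -0.58 to 6.06.

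Together the 10 genes took between 0.305% and 0.888% of the normalised counts of a library in the PF group and between 0.796% and 2.32% in the IL-1β group. The share was higher with IL-1β in 5 of 5 donors, and the ranges overlapped because donor 5 with IL-1β (0.796%) stood below donors 2 and 3 without it (0.888% and 0.804%). The largest share with IL-1β, in donor 4, was mostly MMP13.

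MMP1, MMP3 and MMP13 stand in a row of MMP genes on the chromosome. In RefSeq's gene table of a different horse assembly (TB-T2T, Thoroughbred), used here for names and order only, the genes MMP7, MMP20, MMP27, MMP8, MMP1, MMP3, MMP12 and MMP13 follow each other on chromosome 7. Of these 8 genes, 5 had enough signal to be tested and all 5 had positive fold changes, and 2 of them, MMP1 and MMP3, were called. MMP8, the collagenase known from neutrophils, had a log2 fold change of 2.26 ± 0.79 (SE, adjusted p = 0.0793), and it lay between 3.43 and 4.41 in the PF group and between 4.35 and 9.16 in the IL-1β group. MMP12, the elastase known from macrophages, named here for its place between MMP3 and MMP13, had one of 1.43 ± 0.59 (SE, adjusted p = 0.129). MMP7, MMP20 and MMP27 were not tested, because too few libraries were above the value of 0 reads. MMP2, MMP9, MMP11, MMP14, MMP16 and MMP19 lie elsewhere, each without an MMP gene as a direct neighbour, and MMP23B was not found under that name. A gene named MMP23 lies on chromosome 2 between CDK11 and MIB2, and whether it is MMP23B was not tested.

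Of 13 other MMP genes looked for by symbol, 12 were listed, 7 were tested and 0 were called by limma, where 4 had an unadjusted p below 0.05. With the replicate block 2 of them were called higher, MMP8 (adjusted p = 0.0373) and MMP25 (adjusted p = 0.0376), a membrane-type MMP first known from leukocytes, whose log2 fold change was 1.16. MMP25 rests on low values in both groups, and MMP8 in the PF group. With IL-1β, MMP8 varied widely between donors, from 4.55 to 550 normalised counts. In the 15 leave-out fits MMP8 was called in 3 and MMP25 in 0. Those fits had no donor term, so they do not test the calls made with the replicate block. Since MMP8, MMP9, MMP12 and MMP25 are also leukocyte genes, markers of leukocytes are given beside them. Of 10 such markers, 4 could be tested and 1 rose. PTPRC, the pan-leukocyte gene CD45, was at 3.43, the value of 0 reads, in all 5 IL-1β libraries, and CD3E and TYROBP were at that value in all 10. CD14, a monocyte surface gene, had a mean of 5.88 in the PF group and 8.54 in the IL-1β group, with differences between 0 and 6.84 that were above 0 in 4 donors, and it was not called (log2 fold change 2.66, adjusted p = 0.340). FCER1G was not called either, and was higher in 4 donors. CD68, a lysosomal gene not limited to macrophages, rose from 6.64 ± 0.31 (SD, n = 5) to 8.34 ± 0.79 (SD, n = 5). Summed over the list, the normalised counts were between 63.3 and 1771 in the PF group and between 172 and 1948 in the IL-1β group, most of them from CD14 in the highest libraries.

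Among 7 tested genes that inhibit or clear MMPs, 1 rose and 0 fell (14.3% called, against 6.68% of all tested genes). TIMP1, a secreted inhibitor of most MMPs, went from 13.97 ± 0.58 (SD, n = 5) to 15.28 ± 0.82 (SD, n = 5) and was higher in 5 of 5 donors. Its log2 fold change was 1.31 ± 0.39 (SE, adjusted p = 0.0450). This call stood close to the threshold and was lost in 13 of the 15 leave-out fits. LRP1, an endocytic receptor that takes up proteases and their inhibitors, had a log2 fold change of -0.91 (adjusted p = 0.116), and TFPI2, an inhibitor of serine proteases, had one of 1.91 (adjusted p = 0.303). With the replicate block 2 genes were called higher, TIMP1 (adjusted p = 0.00445) and TFPI2 (adjusted p = 0.0166). TIMP2, TIMP3, TIMP4 and RECK were among those not called.

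Of 13 tested genes that act in the activation of proMMPs, 2 rose and 1 fell. PCSK6, a proprotein convertase of the furin family, fell from 9.83 ± 0.43 (SD, n = 5) to 7.88 ± 0.76 (SD, n = 5), with groups that did not overlap. Its log2 fold change was -1.95 (adjusted p = 0.00396). PLAUR, the receptor of urokinase, rose with a log2 fold change of 1.00 (adjusted p = 0.0145), at the minimum fold change, and was called in 8 of the 15 leave-out fits. SERPINB2, an inhibitor of urokinase, rose with a log2 fold change of 3.26 (adjusted p = 0.0406) and was called in 3 of those 15. PCSK5 had a log2 fold change of 1.08 (adjusted p = 0.0692) and PCSK7 of -0.33 (adjusted p = 0.145). PCSK5 was also called with the replicate block (adjusted p = 0.0238), so that 3 genes rose and 1 fell.

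Of 19 transcription factors known to act on MMP promoters, 6 rose and 0 fell, and all 19 could be tested. NFKB2 rose by a log2 fold change of 1.32, the IκB-like regulator NFKBIZ by 2.92, CEBPB by 1.50 and NFKB1 by 1.15, each higher in 5 of 5 donors with groups that did not overlap and adjusted p-values between 7.28e-05 and 0.000436. The other 2 were the AP-1 subunit FOSL1 (1.40, adjusted p = 0.00120) and the ETS factor ETV4 (1.03, adjusted p = 0.0102), named to complete the count. FOSL1 was called in all 15 leave-out fits and ETV4 in 9 of them. REL (0.95, adjusted p = 0.00543) and RELB (0.71, adjusted p = 0.0206) passed the adjusted p and not the minimum fold change. In the signalling chain from the interleukin-1 receptor, 2 of 14 tested genes rose and 0 fell (14.3% called, against 6.68% of all tested genes). The 2 were IRAK2 (log2 fold change 1.86, adjusted p = 0.00218) and IRAK3 (1.04, adjusted p = 0.0117). IRAK2 was called in all 15 leave-out fits and IRAK3 in 10 of them. MAP3K7, the kinase TAK1, passed the adjusted p (0.00215) with a log2 fold change of -0.67, and so did the decoy receptor IL1R2 (adjusted p = 0.0138) with one of 0.79. IL1R2 rests on low values, with at most 4.70 normalised counts in the PF group and 18.4 in the IL-1β group.

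**Figure D4:**
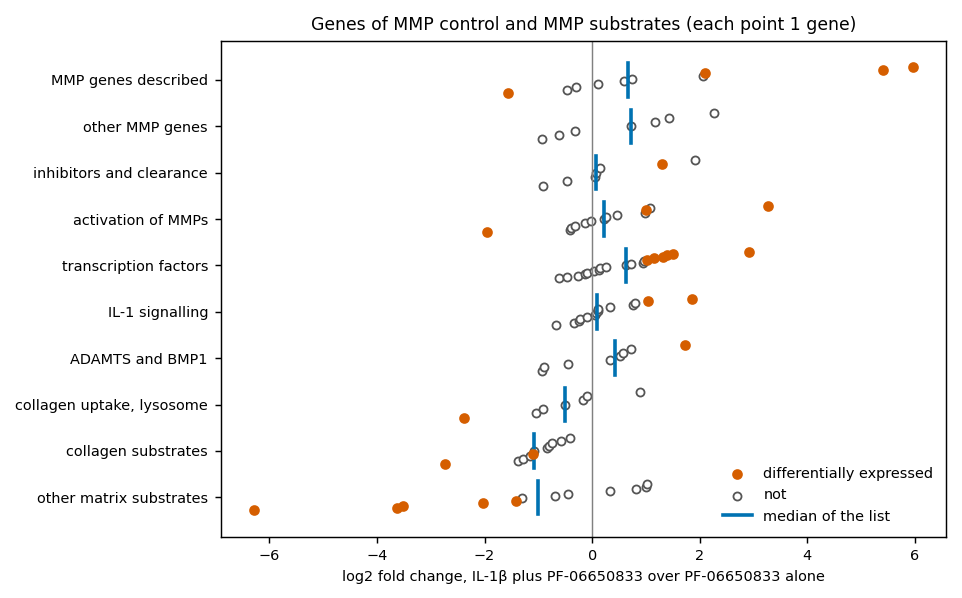
Log2 fold change (x axis) of tested genes that control MMPs or are cut by them, by list (y axis). Each point is 1 gene, filled where differentially expressed, and vertical bars give the median of each list. The transcription factors called lie to the right, and the collagens and other matrix substrates called lie to the left.

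The genes of MMP substrates that were called were all lower. Of 11 tested collagen genes, 0 rose and 2 fell (18.2% called, against 6.68% of all tested genes), with a median log2 fold change of -1.08. The 2 were COL12A1 (log2 fold change -2.74, adjusted p = 0.00473) and COL5A1 (-1.10, adjusted p = 0.0468, called in 4 of the 15 leave-out fits). COL1A2 (-1.28, adjusted p = 0.0614) and COL4A2 (-0.79, adjusted p = 0.0581) did not pass. With the replicate block 5 fell, the others being COL1A1, COL1A2 and COL6A3. Of 12 other matrix proteins, 5 fell and 0 rose. ACAN, the aggrecan core protein, fell from 12.75 ± 0.63 (SD, n = 5) to 6.46 ± 1.22 (SD, n = 5), COMP had a log2 fold change of -3.63 (adjusted p = 0.00794), ELN of -3.51 (0.0138) and TNC of -2.04 (0.0135). FN1, the fifth, had one of -1.41 (adjusted p = 0.0369) and was called in 5 of the 15 leave-out fits. With the replicate block, absent from those fits, the adjusted p from limma was 0.0079 for FN1 and 0.0080 for COL5A1. BGN (-0.68, adjusted p = 0.104) and VCAN (0.82, adjusted p = 0.126) were not called.

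For each MMP gene that was called, the named genes with the most similar differences over the 5 donors were found by the root mean square of the distance in log2 units. Nearest to MMP1 were LIPG (0.51), CXCL1 (1.14) and PTGS2 (1.41), and nearest to MMP3 were NOS2 (0.86), CXCL10 (1.58) and LIPG (1.68). Nearest to MMP9 were CRLF2 (0.54), BDKRB2 (0.60) and BIRC3 (0.63). Nearest to MMP23B were BEND6 (0.12), ITGA9 (0.15) and SH3RF2 (0.16). These distances describe 5 donors and carry no test.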

How the data were processed

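RNA of 10 libraries, 5 from each group, was sequenced on an Illumina NovaSeq, with 31.2 to 41.4 M read pairs of 150 bp per library per the labels. The authors used FastQC (version 0.11.9), quantified reads with Salmon (version 1.8, GC-bias correction) on the EquCab3.0 transcriptome, imported them with tximport and used DESeq2 (version 1.36). The deposited values are log2 values normalized between libraries. The transformation is not named in the sources used here, and the lowest value shared by all libraries (3.43) was taken as 0 reads of a variance-stabilizing transformation, which was inverted to give normalised counts. They are estimates, and their depth per gene is approximate. All 10 value columns were used, and the authors' test was not repeated.

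In R 4.3.3, limma 3.58.1 was run with its trend option and group as the sole term on genes that exceeded the lowest value in 5 or more libraries, with Benjamini-Hochberg adjustment over all genes tested. The same tenocyte line gave both libraries of a donor, so the replicate number marks the donor. The deviations of paired libraries from their group means correlated across genes between 0.367 and 0.506, against a mean of -0.107 for different donors. The MMP genes and the gene lists were chosen with earlier results of these data known. From each list at most 4 called genes per direction, by adjusted p, and up to 2 others, by unadjusted p, were named, and genes named outside this rule are marked or were taken from the lists as markers or members. The alternatives were the replicate block, pseudocounts of 1 and 0.5 on back-transformed values, other filters, scalings, variance models and thresholds, and leaving out each library or donor. The fit was also run on simulated counts, with the same spread setting for all genes and no differences between donors. That run therefore does not check the fit for genes that vary between donors as widely as MMP1 and MMP3. Sequences, gene length and GC content were not analysed here. Some listed genes, such as COL3A1, were not analysed here.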

Additional observations from a re-analysis of the deposited data

How the results depend on the processing

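The 4 calls among the 10 MMP genes were the same number with the replicate block, which changed no call among them, on back-transformed values, under other filters, scalings and variance models, and without a minimum fold change. At an adjusted p below 0.01, 2 MMP genes were called, 1 of them higher. When a library or a donor was left out, the number called ranged from 2 to 5, and the number higher from 1 to 4. MMP3 and MMP23B were called under all 29 alternatives, MMP1 under 26 and MMP9 under 25. The log2 fold change of MMP19 ranged from -0.0281, without donor 4, where it reversed, to 0.2447 when 1 library or donor was left out. The cause was not tested. MMP14 passed with the replicate block where no minimum fold change was set, an alternative chosen after seeing the data.

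Over all genes, 2782 were called without a minimum fold change, 719 at an adjusted p below 0.01, 1809 with the replicate block on back-transformed values and 3996 with the replicate block without a minimum fold change, against 1202 in the limma fit without a donor term that the text uses. With the replicate block alone there were 1486. Leaving out a library or a donor gave 762 to 1422. No depth per gene beyond the estimated normalised counts was available. Low values are the least certain, such as those of MMP25, and in the PF group those of MMP8 and of MMP1 in donor 4.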

Other observations

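Other genes of matrix breakdown were called in both directions in the IL-1β group. Of 8 tested genes, 7 of them ADAMTS genes and the other BMP1, 1 rose and 0 fell (12.5% called, against 6.68% of all tested genes). ADAMTS9, which cleaves proteoglycans, had a log2 fold change of 1.73 ± 0.53 (SE, adjusted p = 0.0480, limma) and was called in 3 of 15 leave-out fits. With the replicate block, absent from those fits, its SE was 0.27 and its adjusted p from limma was 0.00417. The aggrecanase ADAMTS4 (0.72, adjusted p = 0.0131) and the procollagen enzyme ADAMTS2 (-0.90, adjusted p = 0.0184) passed the adjusted p and not the minimum fold change, with groups that did not overlap for either.

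Of 7 tested genes of collagen uptake and lysosomal breakdown, 1 fell and 0 rose (14.3% called, against 6.68% of all tested genes). FAP, a protease of the fibroblast surface, fell from 13.15 ± 0.33 (SD, n = 5) to 10.76 ± 1.17 (SD, n = 5), and was called in all 15 leave-out fits. CTSS had a log2 fold change of 0.90 (adjusted p = 0.00436 from limma), below the minimum, and CTSL one of -1.05 (adjusted p = 0.0567). With the replicate block 2 genes fell, FAP and CTSL (adjusted p = 0.0136). Of 4 tested endothelial markers 0 were called by limma, and 1 had an unadjusted p below 0.05. Of 6 mural cell markers 1 fell, RGS5 (log2 fold change -1.96, adjusted p = 0.0106), and with the replicate block 2 fell, RGS5 and ACTA2 (adjusted p = 0.0334 for ACTA2). Of 3 tested chondrocyte markers 2 fell, COL11A1 (-3.46) and SOX9 (-1.49). The other, MATN3, had a positive log2 fold change of 0.44, was higher in 4 donors and was not called by limma (adjusted p = 0.168).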
